A study of Mus musculus with 96 samples.

Results

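The comparison described here is the chronic response of the mouse hippocampus to a controlled cortical impact (CCI), the experimental traumatic brain injury (TBI) of the series, in mice that received vehicle. It was taken from the 29-day count table by the library titles: 4 hippocampal libraries from injured mice given vehicle (TBI + VH) were compared with 4 from sham mice given vehicle (Sham + VH), 8 libraries of the 96 in the series. All animals were adult male C57BL/6 mice. Sham mice had the anaesthesia and a scalp incision but no craniectomy, so that opening of the skull and the impact itself cannot be told apart in this contrast. Vehicle was saline with Na2CO3, the solvent of the angiotensin II type 1 receptor blocker candesartan; it was injected intraperitoneally 6 h after surgery and then delivered by an osmotic pump implanted at 24 h, and the Sham + VH mice carried the same injection and pump. The brains were perfused with saline and the ipsilateral hippocampus was collected at 29 days post injury (dpi). The study sequenced the 4 RNA samples of highest quality in each group. The labels do not say that each library is a separate mouse, so the p-values measure the spread between libraries. That spread was estimated over all 16 hippocampal libraries of 29 dpi, candesartan groups included.

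Injury to the cortex above the hippocampus is followed by activation of microglia, the resident macrophages of the brain, and of astrocytes. Microglia in the resting state carry a set of surface receptors such as P2ry12 and Tmem119. Near damaged tissue, myelin debris or amyloid they take up a state often called disease-associated, in which the lipid receptor Trem2 and its adaptor Tyrobp are needed and in which Itgax, Clec7a, Cst7, Gpnmb and Spp1 are induced. Astrocytes respond by enlarging their intermediate filament network of Gfap and vimentin, and both cell types are sources of complement proteins, which in the brain tag synapses and debris for removal. In bulk tissue, more cells of a type and more RNA of a gene per cell cannot be told apart, which holds for every difference below.

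The libraries held between 8159341 and 38589791 counted reads. Sham + VH replicates 1 to 4 had 30190440, 8159341, 38589791 and 10409397 reads, and TBI + VH replicates 1 to 4 had 23800051, 11283868, 14844929 and 33521439. Values are given as CPM, the reads of a gene scaled to a common library size after adjustment by the trimmed mean of M-values (TMM), and differences as log2 fold changes with their standard error (SE). The 95% intervals of folds use a normal approximation and are somewhat narrower than the test implies. A gene was called when its false discovery rate (FDR) from edgeR's quasi-likelihood test was under 0.05 and its log2 fold change was over 0.32 in size. Markers of the hippocampus were present in all 8 libraries: Prox1, a transcription factor of dentate granule cells, ranged from 28.5 to 45.8 CPM, and Grik4, a kainate receptor subunit of CA3, from 62.3 to 91.3 CPM. The libraries differed in RNA of the choroid plexus, the epithelium that makes cerebrospinal fluid in the ventricle next to the hippocampus. Ttr, its most typical transcript, was at 6619, 173, 52.8 and 3909 CPM in the Sham + VH libraries and at 77.5, 1968, 14.7 and 330 CPM in the TBI + VH libraries. Sham + VH replicate 3 also held transcripts of pituitary hormones, with Gh at 211 CPM, Prl at 59.8 CPM and Pomc at 95.5 CPM. No pair of libraries within a group was a duplicate: the chi-square per degree of freedom between them ran from 7.69 to 45.1.

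At 29 dpi, 89 of 16832 genes tested differed between TBI + VH and Sham + VH (0.529% of genes), and the response was almost entirely an increase: 88 genes were up-regulated (0.523%) and 1 was down-regulated (0.00594%). The up-regulated genes were led by genes of microglia and macrophages and by reactive astrocyte genes. Their median log2 fold change was 0.96, with a range from 0.32 to 5.03, and 43 exceeded 1 and 16 exceeded 2. Over all genes tested the median was -0.01 and 47.1% of genes lay above 0. In 86 of the 88 up-regulated genes every TBI + VH library was above every Sham + VH library, which their selection on these libraries largely fixes. Over all genes the groups were apart in that direction for 2.50% and in the other for 1.15%. In all 1343 genes, called ones included, had an unadjusted p below 0.05. Fitted on the 8 libraries alone, without the candesartan groups, the test called 42 genes, all up-regulated and all among the 89; DESeq2 on the 16 libraries called 137, of which 88 were among the 89. Of the 89 called genes, 53 were members of at least 1 of the 36 gene lists used here (504 genes) and 36 were in none.

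**Figure D1:**
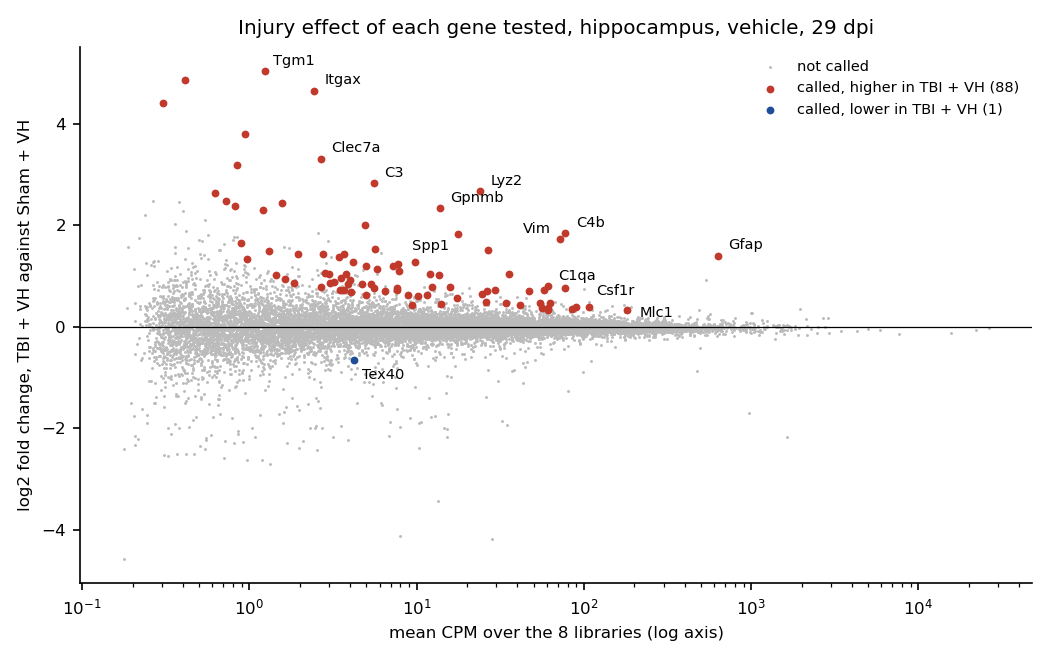
The log2 fold change of TBI + VH against Sham + VH (vertical) is plotted against the mean CPM over the 8 libraries (horizontal, log axis) for each gene tested. The 88 called genes with higher values in TBI + VH are red, the 1 with a lower value (Tex40) is blue and the rest are grey; red points lie at all levels up to Gfap, and grey points far below 0 were not called because their replicates scattered.

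The list of disease-associated microglia had the largest share of called members: 12 of 21 tested genes were up-regulated, none was down-regulated, and the median log2 fold change of the list was 1.01. The count was 7 with all libraries thinned to the read count of the smallest. Itgax, which encodes the integrin CD11c, had 0.0983, 0, 0.34 and 0.0963 CPM in the Sham + VH libraries and 5.58, 2.71, 5.26 and 5.40 CPM in the TBI + VH libraries. The gene was close to absent after sham surgery and present in every injured one, with replicate 2 the lowest. Its log2 fold change was 4.65 with an SE of 0.49 (FDR 7.98e-05), a 25.2-fold difference with a 95% interval from 12.9 to 49.2. That fold rests on few sham reads, at 3, 0, 13 and 1 in the Sham + VH libraries. Clec7a, the beta-glucan receptor Dectin-1, was at 0.688, 0.624, 0.393 and 0.193 CPM after sham and at 4.45, 3.76, 5.26 and 6.01 CPM after injury. The groups were far apart, with a log2 fold change of 3.31 ± 0.32 (SE; FDR 4.19e-05). Cst7, a cathepsin inhibitor, was at no more than 0.197 CPM in any sham library and at 1.76, 0.962, 2.16 and 2.17 CPM after injury (log2 fold change 3.80 ± 0.40, FDR 6.96e-05).

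Gpnmb, a transmembrane glycoprotein of lipid-laden phagocytes, showed the same separation at a higher level. It stood at 5.28, 4.62, 4.03 and 4.14 CPM in the Sham + VH libraries and at 20.8, 17.7, 33.2 and 19.8 CPM in the TBI + VH libraries, a 5.04-fold difference (95% interval 3.89 to 6.52, FDR 1.35e-05). Spp1, the secreted phosphoprotein osteopontin, was at 9.27, 4.12, 10 and 6.16 CPM after sham and at 32.9, 16.3, 37.2 and 25.2 CPM after injury. Both groups scattered, but they did not overlap, and the log2 fold change was 1.83 ± 0.28 (FDR 0.00253). The receptor pair of this state moved by less. Trem2 rose from 7.57, 9.99, 8.22 and 10.7 CPM to 14.5, 14.7, 14.6 and 18 CPM, with a log2 fold change of 0.79 ± 0.12 (FDR 0.00227). Tyrobp, the adaptor that carries the signal of Trem2 into the cell, rose 1.71-fold (95% interval 1.47 to 1.99, FDR 0.00147). Cd68, a lysosomal membrane protein of phagocytes, rose 2.02-fold (95% interval 1.71 to 2.38), and Ctsz, Cd52 and Ccl6 were the other members past both limits together with Atp6v0d2. The last, a subunit of the vacuolar proton pump, had 2 reads in all 4 sham libraries together and 0.839, 0.787, 0.809 and 0.792 CPM after injury, so no fold is given for it. Among the members that were not called, Lpl stood at a log2 fold change of -0.04, Fabp5 at 0.07 and Igf1 at 0.24. Axl, a receptor for dying cells, passed the FDR limit (0.00582) but lay just outside the fold limit, at 57.2 ± 1.5 against 71.3 ± 1.08 CPM (mean ± SD, n = 4 each).

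Genes of resting microglia had smaller differences. Of the 16 members of that list, 2 were up-regulated (1 without TBI + VH replicate 4, and 4 with DESeq2), 13 lay above 0, 10 had an unadjusted p below 0.05, 7 had every injured library above every sham library, and the median log2 fold change was 0.28. Csf1r, the receptor that keeps microglia alive, was one of the called members. It had 88.3, 94.0, 97.5 and 94.7 CPM after sham and 120, 116, 127 and 126 CPM after injury, a tight pair of groups that differed 1.31-fold (95% interval 1.20 to 1.43, FDR 0.00582). The receptor P2ry12 was at 33.2, 36.2, 45.0 and 38.8 CPM in Sham + VH and at 37.3, 36.6, 40.7 and 38.6 CPM in TBI + VH. The groups overlapped fully, and the interval of the fold, 0.889 to 1.12, leaves room for no more than a small difference. Tmem119 was at 18.2 ± 1.39 and 21.9 ± 1.66 CPM (FDR 0.31) and the fractalkine receptor Cx3cr1 at 41.3 ± 4.83 and 52.5 ± 2.61 CPM (FDR 0.114), with all injured libraries above all sham libraries in both genes although neither was called. Seen by library, the mean log2 CPM of the resting list ran from 4.28 to 4.47 in Sham + VH and from 4.6 to 4.68 in TBI + VH, while that of the disease-associated list ran from 1.83 to 2.17 and from 3.13 to 3.60.

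**Figure D2:**
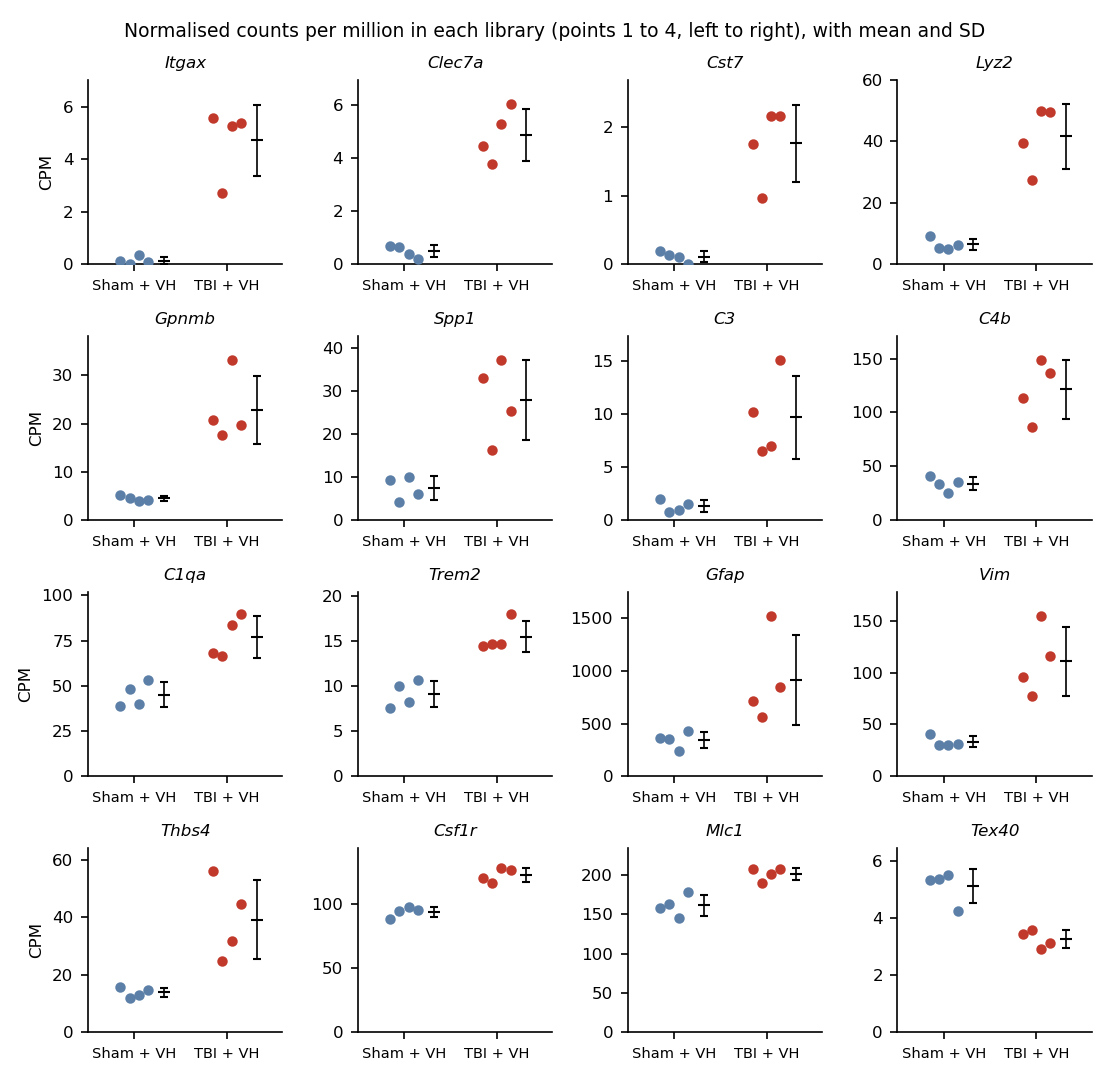
CPM of 16 genes in each Sham + VH library (blue) and each TBI + VH library (red), replicates 1 to 4 from left to right in each group, with the mean and SD beside the points (n = 4 per group). All genes but Tex40 are higher in TBI + VH and no panel has overlapping groups; TBI + VH replicate 2 is the lowest or near the lowest injured point in most panels, and replicate 3 is the highest for Gfap, Vim and Gpnmb.

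Lyz2, the lysozyme of myeloid cells, was the gene with the joint smallest FDR of the comparison (1.35e-05, as Gpnmb). It was at 9.11, 5.25, 5.05 and 6.36 CPM after sham and at 39.5, 27.5, 49.9 and 49.6 CPM after injury, a log2 fold change of 2.67 ± 0.23. Lyz2 was placed in a list of infiltrating and border macrophages, in which it and Siglec1, a sialic acid receptor of macrophages, were the 2 called members of 12 tested. Siglec1 was at no more than 0.34 CPM in any sham library and at 1.76, 1.4, 1.35 and 1.20 CPM after injury. The median log2 fold change of that list was 0.59, 10 of the 12 genes lay above 0 and 5 had an unadjusted p below 0.05. Among the members not called, Mrc1 was at 3.54 against 4.46 CPM on average, Cd163 at 0.846 against 1.42, Ms4a7 at 0.291 against 1.02 (FDR 0.0672) and the monocyte receptor Ccr2 at 0.347 against 0.316. Defining genes of lymphocytes were at or near 0. Cd3e and Cd3d of T cells and Ms4a1 of B cells stayed at or under 0.125 CPM in each of the 8 libraries, and 3 of 14 genes in the list of T and NK cells, 1 of 7 in that of B and plasma cells and 1 of 8 in that of neutrophils passed the filter on low counts, none of them called. Ly9, a receptor of lymphoid and myeloid cells, was called nonetheless (log2 fold change 3.18 ± 0.46, FDR 0.00188), at 0.229, 0.25, 0.157 and 0 CPM after sham and at 1.93, 0.70, 1.55 and 1.91 CPM after injury. Cd22, best known from B cells, moved likewise with a log2 fold change of 2.63 ± 0.44 (FDR 0.00582).

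The complement list had 7 up-regulated members of 17 tested and a median log2 fold change of 0.59. Fitted on the 8 libraries alone the count was 4, without C1qb (FDR 0.0795), C1qc (FDR 0.0999) and C3ar1 (FDR 0.112) by edgeR's test. C3, the central component, was at 2.03, 0.749, 0.994 and 1.54 CPM after sham and at 10.2, 6.56, 7.02 and 15.1 CPM after injury, a 7.10-fold difference (95% interval 4.66 to 10.8, FDR 0.000107). C4b, which feeds the C3 convertase, was at 40.6, 33.8, 25.6 and 35.3 CPM and at 114, 86.4, 149 and 136 CPM. Every injured library was well above every sham library, and the log2 fold change was 1.85 ± 0.16 (FDR 1.5e-05). Its near-identical neighbour C4a was at 3.72 ± 1.44 and 6.78 ± 0.891 CPM (FDR 0.0672), and reads of this pair can be assigned to either copy. The 3 chains of the initiator C1q rose by like amounts: C1qa from 45.0 ± 6.98 to 77.0 ± 11.5 CPM (log2 fold change 0.80, FDR 0.00276), C1qb by 0.73 (FDR 0.00435) and C1qc by 0.71 (FDR 0.00515) on the log2 scale. Of the integrin receptors for complement fragments, Itgb2, the shared beta chain of CD11b and CD11c, rose 1.63-fold (FDR 0.000857), while Itgam, the alpha chain CD11b, was at 24.8 against 28.2 CPM and was not called. C3ar1, the receptor for the C3a fragment, rose 2.70-fold (95% interval 1.94 to 3.76, FDR 0.0067). The inhibitors and terminal receptors of the list were not called: Serping1 stood at a log2 fold change of 0.79 (FDR 0.21), C5ar1 at 0.35, Cd55 at -0.21 and Cd59a at -0.63. Cd59a, which blocks the membrane attack complex, was at 20.4, 5.62, 6.44 and 13.6 CPM in Sham + VH and at 6.75, 10.2, 6.14 and 7.54 CPM in TBI + VH, with its 3 highest values in the 3 libraries richest in choroid plexus RNA.

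Of 19 genes of Fc receptors and their signalling chain, 6 were up-regulated (Fcer1g, Tyrobp, Fcgr2b, Ptpn6, Ptprc and Laptm5), all 19 had a log2 fold change above 0, and the list median was 0.53. The count was 3 without the 3 libraries richest in choroid plexus RNA and 2 without the 4 libraries with fewest counts. Fcer1g, the signalling chain of Fc receptors, went from 6.36, 6.99, 7.14 and 7.42 CPM to 10.9, 9.97, 10.9 and 11 CPM. Fcgr2b, the inhibitory Fc receptor, went from 2.10, 2, 2.12 and 1.73 CPM to 4.78, 4.99, 5.19 and 6.60 CPM (log2 fold change 1.43 ± 0.21, FDR 0.00221). Both genes were tight within each group. In the phagocyte NADPH oxidase, which makes superoxide, both membrane subunits were called of 6 genes tested: Cybb with a log2 fold change of 2.44 ± 0.40 (FDR 0.00485) and Cyba with 0.84 ± 0.18 (FDR 0.0359). The cytosolic subunit Ncf1 was at 0.54 on the log2 scale and was not called (FDR 0.0617). Among Toll-like receptors and their partners, 3 of 15 were up-regulated, and 1 was without TBI + VH replicate 4 or without Sham + VH replicate 2 or 4. Tlr7, the endosomal receptor for single-stranded RNA, rose from 2.21 ± 0.398 to 4.18 ± 0.66 CPM (log2 fold change 0.88, FDR 0.0359). Unc93b1, which delivers such receptors to endosomes, rose 1.48-fold (FDR 0.00641), and Tlr2, a receptor for lipoproteins, 2.71-fold (FDR 0.0439), while Tlr4 was at 1.01 against 1.54 CPM and was not called. Of the calls in these paragraphs, those of Tlr2, Tlr7, Cyba, Ptpn6, Ctsz and Ccl6 were each lost in 5 to 7 of the 8 fits that left out 1 library, and that of Cd52 held in 5.

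Among 22 lysosomal proteins 7 were up-regulated, 19 lay above 0 and the median was 0.22. The count was 3 without TBI + VH replicate 4 and 4 without Sham + VH replicate 3. Ctss, the cysteine protease cathepsin S of antigen-presenting cells, was at 53.3, 56.3, 60.3 and 60.8 CPM after sham and at 91.3, 80.5, 103 and 114 CPM after injury (1.69-fold, 95% interval 1.48 to 1.93, FDR 0.000632). Mpeg1, a pore-forming protein of macrophages, was at 21.9, 22.7, 24.8 and 23.8 CPM and at 46.2, 39.7, 51.5 and 53.8 CPM (log2 fold change 1.04 ± 0.10, FDR 4.37e-05). The replicates of both genes were close together and the groups were clear of each other. Lysosomal genes that most cell types use were nearer to 0: Lamp1 stood at 0.09, Lamp2 at -0.05, Ctsb at 0.16 and Ctsd at 0.34 on the log2 scale, none of them called. In MHC class I presentation, 3 of 13 genes were called, namely B2m (1.27-fold, FDR 0.0102), H2-D1 (1.65-fold, FDR 0.000513) and H2-K1 (1.56-fold, FDR 0.0154); the last pair are similar in sequence and may share reads. The count was 1 without TBI + VH replicate 4, and the call of H2-K1 held in 4 of the 8 fits that left out 1 library. In MHC class II presentation Ctss was the 1 called gene of 7. Cd74, the invariant chain, was at 2.67 ± 1.95 CPM after sham and at 5.93 ± 1.51 CPM after injury and was not called (FDR 0.444). None of 22 genes of the type I interferon response was called in edgeR's test although 20 lay above 0 and 4 had an unadjusted p below 0.05; Oasl2 was at a log2 fold change of 0.68 and Ifitm3 at 0.65. With the level of choroid plexus genes as a covariate, 2 members of that list were called.

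**Figure D3:**
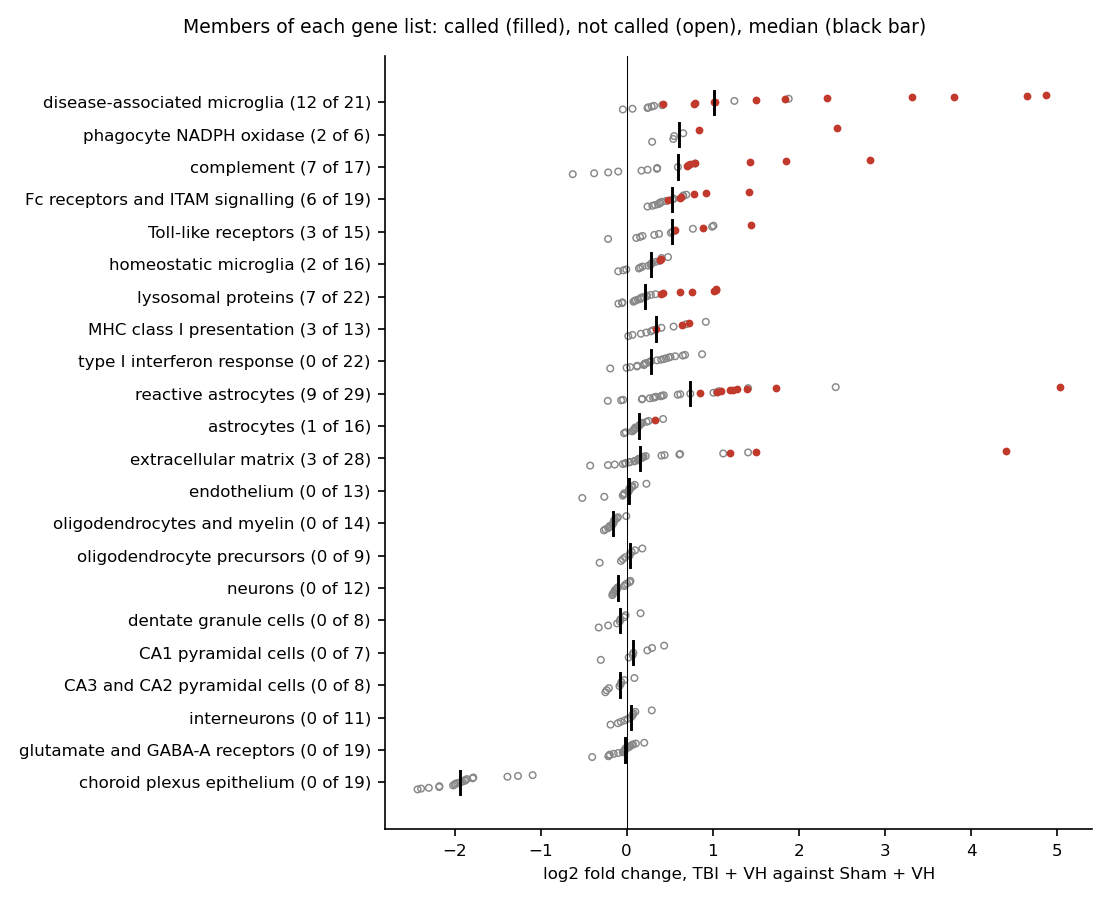
Log2 fold change of every tested member of 22 gene lists (horizontal axis), red where called and open grey where not, with the list median as a black bar and the number called of the number tested in the label. Called members are found in the microglial, immune, astrocyte and matrix lists; the neuronal, myelin and endothelial lists stay near 0, and the 19 choroid plexus genes lie between -2.43 and -1.09 with none called.

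Reactive astrocyte genes formed the other large group: 9 of 29 members were up-regulated, 26 lay above 0 and the list median was 0.74. Gfap, the astrocyte intermediate filament, was at 360, 352, 242 and 432 CPM after sham and at 717, 563, 1526 and 849 CPM after injury. The groups did not overlap, replicate 3 stood above the other injured libraries, and the log2 fold change was 1.4 ± 0.23 (FDR 0.00515). In edgeR's fit of the 8 libraries alone the log2 fold change was also 1.4, and the gene was not called (FDR 0.114). Vim, the vimentin filament, was at 41.0, 30.3, 30.1 and 31.5 CPM and at 95.9, 77.2, 155 and 116 CPM (3.32-fold, 95% interval 2.64 to 4.18, FDR 4.19e-05). Tgm1, a protein-crosslinking transglutaminase, had the largest fitted log2 fold change, a rank that rests on few sham reads. It had 2, 0, 3 and 1 reads in the sham libraries and 33, 10, 77 and 75 reads in the injured ones, or 1.38, 0.875, 5.19 and 2.20 CPM (log2 fold change 5.03 ± 0.65, FDR 0.000632). Osmr, the oncostatin M receptor, rose from 4.51 ± 1.05 to 10.9 ± 2.51 CPM (FDR 0.00107), S1pr3, a sphingosine-1-phosphate receptor, from 7.80 ± 1.04 to 16.3 ± 3.80 CPM (FDR 0.00107), and Cd44, a hyaluronan receptor, from 4.88 ± 1.13 to 10.7 ± 2.36 CPM (FDR 0.00539). Aspg, Emp1 and Ggta1 were the other called members, and the call of Emp1 held in 2 of the 8 fits without 1 library. Serpina3n, a secreted protease inhibitor often used as a reactive marker, was at 75.6 ± 10.8 and 125 ± 42.0 CPM and missed the limit (FDR 0.0519). Lcn2 was at 0.214 against 1.42 CPM (FDR 0.581), at 0.377, 2.45, 0.202 and 2.64 CPM in the injured libraries.

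Genes that mark astrocytes in general had smaller differences. Mlc1, a membrane protein of perivascular end feet, was the 1 called gene of 16, at 158, 162, 146 and 178 CPM after sham and 207, 190, 201 and 207 CPM after injury (1.25-fold, FDR 0.0156), and it lay just over the fold limit. Its call held in 4 of the 8 fits without 1 library and in 12 of 20 alternatives. The water channel Aqp4 was at 149 ± 10.3 and 200 ± 39.9 CPM (FDR 0.0962), the gap junction protein Gja1 at 215 ± 13.6 and 256 ± 18.5 CPM (FDR 0.0672), and the glutamate transporters Slc1a2 and Slc1a3 at log2 fold changes of 0.18 and 0.17. The list median was 0.14, 14 of the 16 genes lay above 0 and 6 had an unadjusted p below 0.05. In 5 of them every injured library was above every sham library, as in 2.50% of all genes tested. Of 28 genes of the extracellular matrix, 3 were called. Thbs4, a thrombospondin made by astrocytes and in scars, was at 15.7, 12.1, 13 and 14.7 CPM and at 55.9, 24.8, 31.7 and 44.5 CPM (2.84-fold, 95% interval 2.17 to 3.71, FDR 0.000671). P4ha3, a collagen prolyl hydroxylase subunit, was at 3.18, 2.87, 2.70 and 3.27 CPM and at 6.54, 6.74, 8.16 and 6.13 CPM, a narrow spread in each group (log2 fold change 1.20 ± 0.13, FDR 0.000107). The metalloprotease Mmp12 had 2 reads in the sham libraries together and 0.755, 0.437, 0.742 and 0.44 CPM after injury. Fibrillar and basement membrane collagens gave no call: Col1a1 stood at a log2 fold change of 0.19, Col4a1 at 0.04 and Col3a1 at 1.12 (FDR 0.276).

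No gene on the neuronal, myelin, vascular or progenitor lists was called by edgeR's test; an unadjusted p below 0.05 was found for 1 of 12 pan-neuronal, 1 of 8 dentate granule cell, 2 of 7 CA1, 3 of 8 CA3 and CA2, 0 of 11 interneuron, 2 of 19 receptor, 0 of 14 myelin, 0 of 13 endothelial and 1 of 10 pericyte and smooth muscle genes, and DESeq2 called none of them up. The test called 1 CA1 gene up without TBI + VH replicate 3 and 1 pericyte and smooth muscle gene up without Sham + VH replicate 1. Rbfox3, the neuronal nuclear protein NeuN, was at 265, 292, 290 and 264 CPM after sham and at 255, 251, 283 and 243 CPM after injury, so the groups overlapped. The interval of its fold was 0.856 to 1.01. Snap25, a synaptic fusion protein, was at 2273 ± 292 and 2024 ± 130 CPM. Its approximate fold interval was 0.797 to 0.995, while edgeR's test gave an unadjusted p of 0.057 (FDR 0.646). The median log2 fold change was -0.11 over 12 pan-neuronal genes, -0.08 over 8 dentate granule cell genes, 0.08 over 7 CA1 genes, -0.08 over 8 CA3 and CA2 genes, 0.05 over 11 interneuron genes and -0.02 over 19 glutamate and GABA-A receptor subunits. Gabrd, the delta subunit of extrasynaptic GABA-A receptors, had the lowest value of the receptor list, at -0.40 (24.8 against 18.8 CPM, FDR 0.381). All 14 myelin genes lay below 0, with a median of -0.16 and none called; Mbp, the myelin basic protein, was at 2580 ± 238 and 2384 ± 241 CPM. Among 12 genes of newborn neurons and progenitors, 5 had an unadjusted p below 0.05 and none was called: Sox11 stood at 0.45, Eomes at 1.08 and Dcx, the marker of migrating neuroblasts, at -0.20. The proliferation marker Mki67 was at 2.57 ± 0.167 and 2.67 ± 1.13 CPM. Of 11 genes of the renin-angiotensin system, on which candesartan acts, none was called in edgeR's test and none had an unadjusted p below 0.05; Agtr1a, the candesartan target, was at 0.545 ± 0.315 and 0.645 ± 0.0957 CPM, too low for a small change to be detectable at this depth.

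Of the 36 called genes that no list held, several are known from leukocytes or from the cell surface and cortex of reactive cells; they are named here after their values were seen. Flnc, an actin crosslinker, rose 2.89-fold (FDR 0.000513) and S100a6, a calcium-binding protein, by 1.28 on the log2 scale (FDR 0.00147). S100a4, its relative, was at 1.54, 2.25, 1.88 and 2.31 CPM after sham and at 5.12, 4.64, 15.8 and 5.63 CPM after injury, where replicate 3 was far above the others. In edgeR's fit of the 8 libraries alone S100a4 was not called (FDR 0.114). Lag3, an inhibitory receptor, was at 3.18, 4, 4 and 3.47 CPM and at 7.63, 6.56, 8.70 and 9.12 CPM (2.21-fold, FDR 0.000313). Lilrb4, an inhibitory receptor for which the annotation has a close paralog, rose from 0.426 ± 0.131 to 1.99 ± 0.762 CPM (FDR 0.00283). Abca1, the exporter of cholesterol to lipoproteins, rose by 0.48 (FDR 0.0067), Anxa5, a phosphatidylserine binder, by 0.47 (FDR 0.00109) and Tnfrsf1b, a TNF receptor, by 0.69 (FDR 0.0309) on the log2 scale. The call of Tnfrsf1b held in 2 of the 8 fits without 1 library and in 7 of 20 alternatives. The single down-regulated gene was Tex40, a subunit of the sperm calcium channel CatSper, at 5.34, 5.37, 5.52 and 4.24 CPM after sham and 3.44, 3.59, 2.90 and 3.14 CPM after injury (log2 fold change -0.66 ± 0.14, FDR 0.0373). Its call held in 7 of 20 alternative analyses.

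The 4 injured libraries were not equal in the size of the response. TBI + VH replicate 2 was the lowest of its group for 61 of the 88 up-regulated genes, and replicates 3 and 4 were the highest for 36 and 39. In the sham group no library stood out as much, the highest being replicate 1 for 31 genes. The mean log2 CPM of the reactive astrocyte list was 2.99, 2.84, 3.20 and 3.01 in TBI + VH and 2.44, 1.97, 2.15 and 2.05 in Sham + VH. Choroid plexus RNA varied too: the mean log2 CPM of its 19 genes was 5.82, 0.99, 0.39 and 4.62 in Sham + VH and 0.81, 4.34, -0.36 and 1.63 in TBI + VH, so that replicate 2, the low injured library, was also the injured library with the most of it, and the part of this RNA in the result was not tested beyond the fits that follow. With that level as a covariate 98 genes were called (94 up), 78 of them among the 89. Without Sham + VH replicates 1 and 4 and TBI + VH replicate 2, a choice made after seeing the data, 99 genes were called, 86 up and 13 down, with 58 of the 89 among them.

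**Figure D4:**
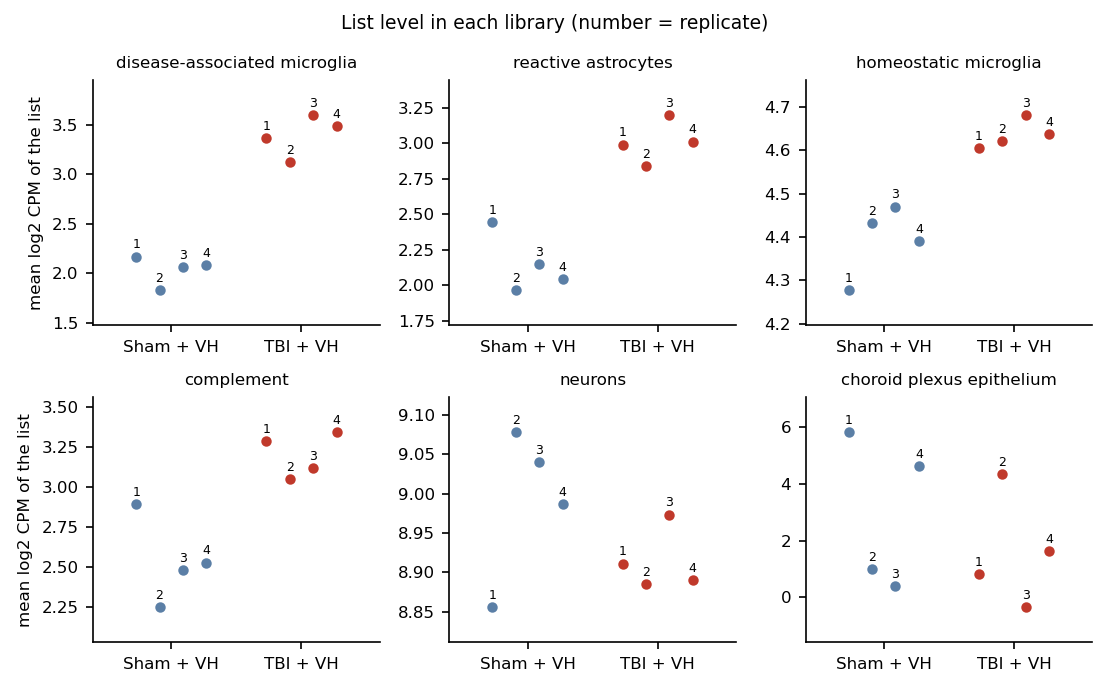
Mean log2 CPM of 6 gene lists in each library (vertical axis; the number beside a point is the replicate), Sham + VH in blue and TBI + VH in red. The groups are apart for the disease-associated microglia, reactive astrocyte, resting microglia and complement lists; they overlap for the neuronal list and, over a much wider range, for choroid plexus genes.

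Sequence around the start sites of the genes that rose together was searched for letters that known regulators of myeloid and reactive genes bind; it is a description of the windows and tests no factor. RefSeq windows from 250 bases before to 50 bases after the start site (build GRCm38.p6) were found for 66 of the 88 up-regulated genes, 79 windows of 300 bases. Both strands were read. GAGGAAGT, a core bound by the myeloid factor PU.1, was in 5 of the 79 windows (6.33%), against 2.73% of the 15525 windows of genes tested and 3.20% of all 32851 windows. TGANTCA, the AP-1 site, was in 12 (15.2%, against 5.29% and 7.81%). GAAANNGAA, a core of interferon response elements, was in 10 (12.7%, against 7.01% and 8.56%). TTCCNGGAA, read by STAT factors, was in 2 (2.53%, against 1.19% and 1.15%), GGGACTTTC, an NF-kB site, in 1 (1.27%, against 0.374% and 0.353%), and TCACGTGA, the site of the lysosomal regulator TFEB, in 0 (against 1.67% and 0.974%). The windows of the 4 genes with the largest fitted fold change among those that held the PU.1 letters (C1qc is the other) are shown because they include matrix, microglial and lysosomal members of the response; the letters are in capitals, as GAGGAAGT or as its reverse complement ACTTCCTC.
Mmp12: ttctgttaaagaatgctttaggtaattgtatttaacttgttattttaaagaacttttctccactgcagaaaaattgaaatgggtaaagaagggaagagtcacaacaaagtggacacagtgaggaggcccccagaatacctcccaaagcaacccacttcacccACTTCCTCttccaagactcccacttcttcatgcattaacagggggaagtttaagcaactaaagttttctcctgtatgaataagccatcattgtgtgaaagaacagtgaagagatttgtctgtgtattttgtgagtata
S100a4: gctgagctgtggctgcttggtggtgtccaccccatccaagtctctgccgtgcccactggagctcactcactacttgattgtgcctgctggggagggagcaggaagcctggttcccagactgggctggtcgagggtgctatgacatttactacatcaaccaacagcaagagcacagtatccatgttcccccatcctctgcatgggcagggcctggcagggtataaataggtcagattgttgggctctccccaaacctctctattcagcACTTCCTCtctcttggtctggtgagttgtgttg
Spp1: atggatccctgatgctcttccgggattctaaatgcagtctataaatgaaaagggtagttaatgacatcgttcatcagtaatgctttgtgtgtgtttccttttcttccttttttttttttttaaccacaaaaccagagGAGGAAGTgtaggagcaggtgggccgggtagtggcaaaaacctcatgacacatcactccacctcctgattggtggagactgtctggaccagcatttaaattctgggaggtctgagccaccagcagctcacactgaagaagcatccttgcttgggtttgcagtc
Ctss: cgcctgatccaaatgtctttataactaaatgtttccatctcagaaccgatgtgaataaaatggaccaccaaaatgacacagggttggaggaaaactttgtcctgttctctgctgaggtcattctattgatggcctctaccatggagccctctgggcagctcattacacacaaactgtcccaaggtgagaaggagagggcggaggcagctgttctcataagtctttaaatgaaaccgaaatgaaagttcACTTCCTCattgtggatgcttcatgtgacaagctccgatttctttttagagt
The letters begin 88 bases before the start in Mmp12 (chr9:7344147-7344446), 113 before in Spp1 (chr5:104434861-104435160) and 2 before in Ctss (chr3:95526536-95526835), and lie after the start in S100a4 (chr3:90603520-90603819); all 4 windows are on the plus strand. The Spp1 and Ctss windows also hold the interferon response core.

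Candesartan-treated mice gave a separate pair of groups in the same tissue, with 4 injured (TBI + CD) and 4 sham (Sham + CD) libraries, and the test of whether the injury effect differed between drug and vehicle called no gene (0% of 16832 in edgeR's test; the smallest FDR was 0.513; 890 genes, or 5.29%, had an unadjusted p below 0.05; DESeq2 called 2). In TBI + CD against Sham + CD, 59 genes were up-regulated (0.351%), and 39 of these were among the 88, which is 66.1% of the 59 and 44.3% of the 88. The 88 genes had a median log2 fold change of 0.96 in vehicle mice and 0.62 in candesartan mice, and 79 of them were larger in vehicle mice; since they were chosen for being large in vehicle mice, this order is partly set by the choice. The same holds for the single genes that follow, whose test uses those vehicle libraries again. Gpnmb had 4.43, 3.52, 5.18 and 3.95 CPM in Sham + CD and 13.9, 12.3, 11.2 and 9.84 CPM in TBI + CD. All 4 of these injured values were below the lowest TBI + VH library, and the FDR of the difference was 0.892. For Lyz2 the log2 fold change was 2.67 in vehicle mice and 1.93 in candesartan mice, for Trem2 0.79 and 0.39, and for C3 2.83 and 2.96, with no call on any of these differences.

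The injury effect in vehicle mice was next compared with that in the thalamus and hypothalamus at the same time point, in 1 fit over the 48 libraries of 29 dpi. The regions were dissected from the brains and may come from the same mice; the labels do not link them, and the fit treated the libraries as independent. In this fit the hippocampus had 107 genes called up (0.597%) and 10 called down (0.0558%), and 68 of the 88 genes were among the former. In the thalamus no gene was called (0% of 17935; 593 with an unadjusted p below 0.05) and in the hypothalamus 2 were (0.0112%; Malat1 and BC071253), neither of them among the 88. The median log2 fold change of the 88 genes was 0.96 in hippocampus, against 0.16 for thalamus and 0.08 for hypothalamus; the first value again reflects how the genes were chosen. The test of the difference itself found 4 genes with a larger effect in hippocampus than in thalamus (0.0223%) and 9 with a larger effect than in hypothalamus (0.0502%), and 1 with a smaller one (Malat1, 0.00558%). The 4 were C3, C4b, P4ha3 and Thbs4, all among the 88. For C4b the log2 fold change was 1.86 in hippocampus, 0.31 in thalamus and 0.21 in hypothalamus, differences of 1.55 ± 0.29 (FDR 0.0191) and 1.64 ± 0.28 (FDR 0.00394). For P4ha3 it was 1.20 ± 0.13, -0.02 ± 0.11 and -0.04 ± 0.11 (FDR 0.000142 and 7.63e-05). C3 showed 2.84, -0.01 and 0.26. Thbs4 showed 1.51 ± 0.26 in hippocampus and -1 ± 0.40 in thalamus. Against hypothalamus, Lyz2, Tgm1, Klhl6 and Kcne1l were called in addition to C3, C4b and P4ha3, together with Myo1c and St14, which are not among the 88. In the hypothalamus itself the log2 fold change was -1.44 for Tgm1, -0.92 for St14, -0.55 for Klhl6 and -0.15 for Myo1c. It was 0.24 for Lyz2 and 0.05 for Kcne1l. The call of Klhl6 in the hippocampus held in 0 of the 8 fits without 1 library and that of Kcne1l in 3. Of the disease-associated microglia genes, Cst7 had a log2 fold change of 5.21 ± 0.97 in thalamus (FDR 0.0635) against 3.82 ± 0.94 in hippocampus in this fit, and Itgax 3.28 ± 0.79 against 4.67 ± 0.83. Their differences between the regions were not called. When 1 of the 16 libraries in these groups was left out, the count for thalamus ran from 1 to 12: it fell to 1 without TBI + VH replicate 4, Sham + VH replicate 2 or 3, thalamic TBI + VH replicate 4, or thalamic Sham + VH replicate 2 or 3, and rose to 12 without Sham + VH replicate 1. For hypothalamus it ran from 5 (without TBI + VH replicate 4) to 19 (without hypothalamic TBI + VH replicate 1).

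**Figure D5:**
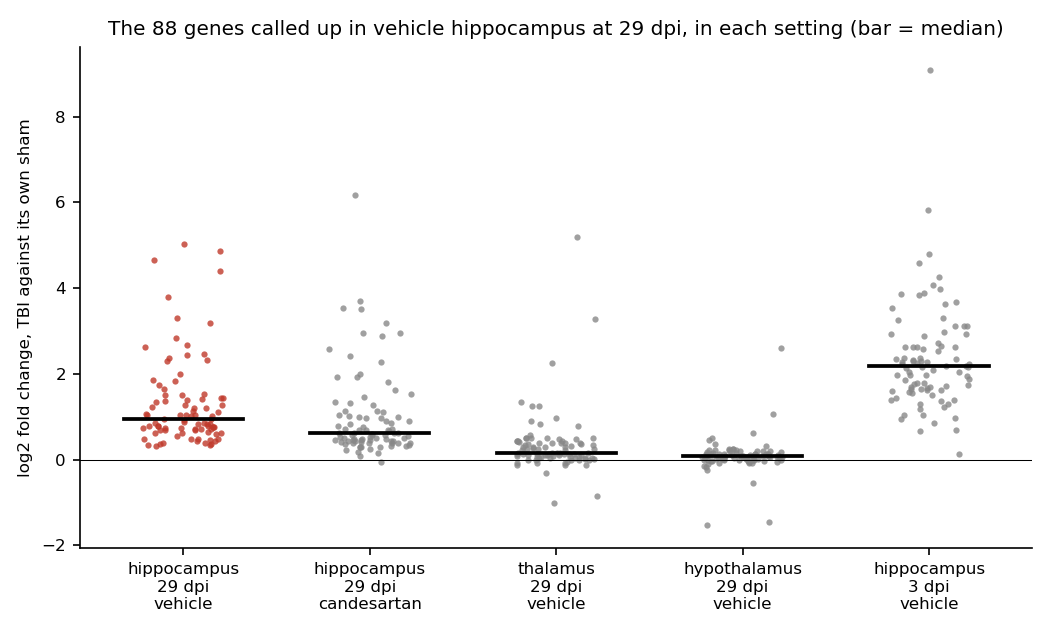
Log2 fold change of TBI against its own sham group (vertical axis) for the 88 genes called up in vehicle hippocampus at 29 dpi (red), and for the same genes in candesartan mice, in thalamus and hypothalamus of vehicle mice, and in vehicle hippocampus at 3 dpi (grey), with the median as a black bar. The medians are 0.96, 0.62, 0.16, 0.08 and 2.18; the genes were chosen on the first column.

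At 3 dpi the same lesion in vehicle mice had called 1529 genes up (8.90% of 17181), and 85 of the 88 chronic genes were among them. These counts come from the fit of 32 libraries, in which 29 dpi had 73 genes called up (0.425%) and 4 called down (0.0233%), with 60 of the 88 among the former. Spp1 was not called there (FDR 0.262 by edgeR's test). The 85 are 96.6% of the 88 and 5.56% of the 1529. The early mice received their vehicle by injection only and their counts come from a separate table, and time, dosing and table cannot be told apart; each effect was taken against its own sham group. The median log2 fold change of the 88 was 2.18 at 3 dpi and 0.955 at 29 dpi in the common fit of 32 libraries. Over all genes, the test of the difference called 527 genes with a lower injury effect at 29 dpi (3.07%) and 16 with a higher one (0.0931%); 51 of the 88 were in the first set and none in the second. Gfap fell from a log2 fold change of 3.62 to 1.4, a difference of -2.22 ± 0.31 (FDR 5.77e-05), and Vim from 3.84 to 1.73 (difference -2.11 ± 0.32). Trem2, C1qa, C4b and Cd68 were also among the 51. For C3 the effect was 2.92 at 3 dpi and 2.83 at 29 dpi, for Lag3 1.31 and 1.14, and for Cybb 2.63 and 2.44, with no call on the difference. The 4 genes with a larger value at 29 dpi were Itgax (2.27 and 4.66, FDR of the difference 0.0782), Atp6v0d2, Wisp2 and Adgrl2; none of these differences was called, and the last 3 were the genes without a call at 3 dpi. The 29-dpi call of Adgrl2 held in 1 of the 8 fits without 1 library. Without 3 dpi TBI + VH replicate 1 or 3 the count of differing genes fell from 543 to 330 or 321.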

How the data were processed

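The authors sequenced stranded poly-A libraries from perfused brain tissue (TruSeq Stranded mRNA, paired-end reads), aligned the reads to mm10 with MapSplice and counted them per gene with HTSeq 0.9.1; the deposited values are raw counts, with 32594 genes in the table. The authors tested them with DESeq2 1.16.1; their own test results were not used. Per the submitters' processing notes, bcl2fastq was used as well.

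Counts of the 16 hippocampal libraries of 29 dpi were filtered (filterByExpr), scaled by TMM and fitted with edgeR 4.0.16 in R 4.3.3 with 1 term per group; TBI + VH was tested against Sham + VH with edgeR's quasi-likelihood test, and p-values of the 16832 genes left were adjusted by the Benjamini-Hochberg method. The fitted log2 fold changes used edgeR's default prior count. The prior count of 2 entered only the log2 CPM values. Regions were compared in a fit of 48 libraries and time points in a fit of 32, by interaction terms; neither had a term for the mouse. On simulated counts with 200 changed genes in this comparison, the test recovered 46.3%, 89.6% and 95.5% of those with a log2 change of 0.5, 1 and 2, with 3 false calls. The changed genes were drawn from genes that averaged 1 CPM or more, so these rates do not cover lower genes. Alternatives were DESeq2 1.42.0, limma 3.58.1 (voom), other factors, no filter, thinning, subsets of libraries, a replicate block and a choroid plexus covariate.

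Depth ran from 8159341 to 38589791 counts, which sets the precision for low genes. Genes named were the 15 largest increases and 5 largest decreases among called genes that averaged 1 CPM or more and whose groups did not overlap, up to 4 called members per list by level, the first 4 genes of each cell type list, and genes that the study's text names for this comparison; all other genes named, among them Cst7, Cd68, Lag3, Osmr, Serpina3n, S100a6, Axl, Ly9, Cd22 and Atp6v0d2, were chosen after their values were seen. The gene lists and the comparison itself were chosen with earlier results of these data known, and adjustment was always over all genes tested. Some list members are counted but not reported here by name.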

Additional observations from a re-analysis of the deposited data

Results flagged for a closer look

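In each group of 4 libraries the lowest and highest values were tested against the rest (Dixon's test, 190 tests); 12 stood apart, and chance gives about 5% of such tests. Among the called genes these were Itgax in TBI + VH replicate 2 (low, 2.71 CPM), Fcer1g in the same library (low, 9.97 CPM), S100a4 in TBI + VH replicate 3 (high, 15.8 CPM), Trem2 in TBI + VH replicate 4 (high, 18 CPM), Vim, Osmr and Mmp12 in Sham + VH replicate 1 (high, 41.0, 6.06 and 0.0655 CPM), and Unc93b1 (high, 15.8 CPM) and Tex40 (low, 4.24 CPM) in Sham + VH replicate 4. The others were Ttr in TBI + VH replicate 2 (high, 1968 CPM), the mean log2 CPM of NADPH oxidase genes in Sham + VH replicate 2 (low, 0.44) and that of Toll-like receptor genes in Sham + VH replicate 3 (high, 0.92).

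The injury effect differed between settings, by the test of the difference itself, for 4 genes between hippocampus and thalamus, 10 genes between hippocampus and hypothalamus and 543 genes between 29 and 3 dpi. The reasons were not tested.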

How the results depend on the processing

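The comparison of TBI + VH with Sham + VH was repeated under 20 alternatives. The fold change of all 88 up-regulated genes stayed above 0 in each of them, 21 were called in every one and 51 in all 8 fits that left out a library. Against 89 genes, the count was 137 with DESeq2, 41 with libraries thinned to the smallest, 42 with only the 8 libraries and 56 without the 4 libraries with fewest counts (chosen after seeing the data); it was 68 with voom, and 63 (without TBI + VH replicate 4) to 94 (without TBI + VH replicate 2) without 1 library. Of 896 results for the 45 named genes, 765 kept their call, 131 lost it and 0 changed direction. For the interaction with candesartan, the count of 0 became 2 with DESeq2 and stayed at 0 to 0 without any 1 library. For hippocampus against thalamus, 4 became 11 with DESeq2 and 1 after thinning, and ran from 1 to 12 without 1 library. For hippocampus against hypothalamus, 10 became 19 with DESeq2, 3 after thinning and 18 with voom, and ran from 5 to 19. For 29 against 3 dpi, 543 became 263 after thinning and ran from 321 to 762 without 1 library. Thinning and left-out libraries reduce the reads or samples tested; for the others the cause was not tested. The replicate numbers did not pair the libraries (correlations of same-numbered deviations -0.0518, -0.216, 0.226 and 0.142; 2 of 4 matched their own number best); with the replicate block, the counts were 90, 0, 5, 15 and 549. Genes near 1 CPM and below rest on few reads in the 2 shallowest sham libraries.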
